A study of Mus musculus with 15 samples.

Results

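The 9 genes described here encode kidney carriers of organic anions and cations. They were chosen by name, as transporters of the Slc22, Slco and Slc47 families, and not by a threshold on their values. All 9 were present among the 54532 genes of the table. Carriers of this kind move drugs, metabolites and retained waste products across the proximal tubule: uptake carriers on the blood side bring them into the cell, and carriers on the brush border pass them on to the urine or take them back. The organic anion carriers on the blood side exchange their substrate for a dicarboxylate from inside the cell, so that they depend on a separate dicarboxylate carrier. The substrates they clear accumulate when the kidney fails.

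Kidney RNA was sequenced from 15 male C57BL/6 mice, 8 weeks old at the start, with 5 mice in each of 3 groups. The C group ate a normal diet; the M group, the chronic kidney disease (CKD) model, received a diet with 0.25% adenine for 4 weeks and then standard chow to week 8; the AA group had the same diets and was given asiatic acid, a triterpenoid, at 30 mg/kg throughout. The C and M groups received the vehicle, DMSO in saline. Adenine forms crystals in the tubules and injures the whole nephron, so the model is not specific to one cell type. Each library pools the cells of the kidney tissue taken. Whether that was a whole kidney or a piece was not given in the sources used here. Levels are FPKM (fragments scaled to transcript length and to the mapped fragments of the library), a scale that allows genes of different length to be compared.

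The libraries of M mice 1 to 3 stood apart. They held 10068 to 12222 genes above 0, against 23040 and 25460 in M mice 4 and 5, and at least 18695 in every C and AA kidney. The share of reads on mitochondrial genes was 53.0 to 62.5% for C, 64.0 to 86.8% for M and 69.2 to 87.2% for AA. The labels name no batch that these libraries share. Differences from the M group are therefore also given with M mice 4 and 5 alone and, where they differ, with M mice 1 to 3 alone. Among 10 genes used by every cell, 1 was listed at 0 in each of M mouse 1, AA mouse 1 and AA mouse 2, so an exact 0 means only that a gene was listed at 0.

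The genes lie on 6 chromosomes, all coordinates being GRCm38. Slc22a8 (ENSMUSG00000063796, chr19:8591254-8611835, plus strand) and Slc22a6 (ENSMUSG00000024650, chr19:8618039-8628299, plus strand) are neighbours in the same orientation. Slc22a12 (ENSMUSG00000061742) lies at chr19:6535845-6543032 on the minus strand, inside the span of Nrxn2 on the opposite strand. Slc22a2 (ENSMUSG00000040966, chr17:12584132-12628488, plus) and Slc22a7 (ENSMUSG00000067144, chr17:46432183-46438457, minus) share a chromosome but are far apart. The others are Slc22a18 (ENSMUSG00000000154, chr7:143473736-143499334, plus), an imprinted gene of the distal chromosome 7 cluster, Slc47a1 (ENSMUSG00000010122, chr11:61343401-61378345, minus), Slco1a1 (ENSMUSG00000041698, chr6:141907282-141946962, minus) and Slco4c1 (ENSMUSG00000040693, chr1:96816270-96872171, minus). All 9 are annotated as protein coding. Of the overlapping genes, Nrxn2 reached at most 3.61 FPKM and Panct2, an antisense RNA at Slco4c1, at most 1.63 FPKM; whether strand was used in counting was not given in the sources used here. Slc22a2 shared 6.60% of its 31-base words with other genes, Slco1a1 shared 4.00%, and the other 7 members shared at most 1.18%, so that reads of Slc22a2 and Slco1a1 could be split with paralogs to a small extent.

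Promoter sequence is shown for the 2 neighbouring anion carriers and for Slco4c1, because their upstream regions differed in composition. Slco4c1 was the member called in no comparison (a call is defined below). It was below 1 FPKM in every kidney, so the lack of a call does not mean that its level was unchanged. RefSeq windows (GRCm38.p6) were found for 7 of the 9 genes; Slc22a7 and Slc47a1 had none. The 150 bases before the RefSeq start are written 5′ to 3′ on the strand of the gene. RefSeq places the Slc22a8 start inside the GENCODE span given above, so its window lies within that span. Capitals mark every CG dinucleotide.
Slc22a6 (chr19:8617846-8617995, plus): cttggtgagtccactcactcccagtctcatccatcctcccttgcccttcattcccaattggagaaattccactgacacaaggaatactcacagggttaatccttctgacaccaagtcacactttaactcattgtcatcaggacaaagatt
Slc22a8 (chr19:8593032-8593181, plus): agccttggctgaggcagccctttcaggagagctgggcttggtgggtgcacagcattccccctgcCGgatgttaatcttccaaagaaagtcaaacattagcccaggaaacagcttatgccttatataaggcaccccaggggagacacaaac
Slco4c1 (chr1:96872172-96872321, minus): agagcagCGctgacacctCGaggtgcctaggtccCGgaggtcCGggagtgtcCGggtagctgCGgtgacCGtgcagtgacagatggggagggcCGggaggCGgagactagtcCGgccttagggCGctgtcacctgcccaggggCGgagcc

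The Slc22a6 stretch has none, the Slc22a8 stretch has 1 and the Slco4c1 stretch has 12.

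Searched on both strands of the 250 bases before the start, the Hnf4a core CAAAGTCCA was in none of the 7 windows and in 0.384% of 32817 mouse promoters. TATAAA was found in the Slco1a1 window and in 12.4% of all promoters. The Slco4c1 window held 19 CG dinucleotides, above the upper quartile of 16 over all promoters, where the median was 6. Slc22a6, Slc22a18 and Slco1a1 held 0 CG, Slc22a8 held 1, and Slc22a2 and Slc22a12 held 6 each. These matches describe letters in a window and are not measured binding sites.

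In the M group 5 of the 9 transporters were called lower than in the C group, 0 were called higher, and 8 of 9 had no M kidney within the C range. A call required a Benjamini-Hochberg adjusted p (limma, over all genes tested) of at most 0.05 and a change of at least 1 on the log2(FPKM + 1) scale, on which changes of low genes are understated. Over all 21153 genes tested, 1.11% were called lower, 0.269% were called higher and 3.67% were lower without overlap. The median change of the 9 members was −3.28, beside −0.12 over all genes tested. The question was what the adenine diet did to the kidney; in bulk tissue, fewer proximal tubule cells and less RNA per cell cannot be told apart.

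**Figure D1:**
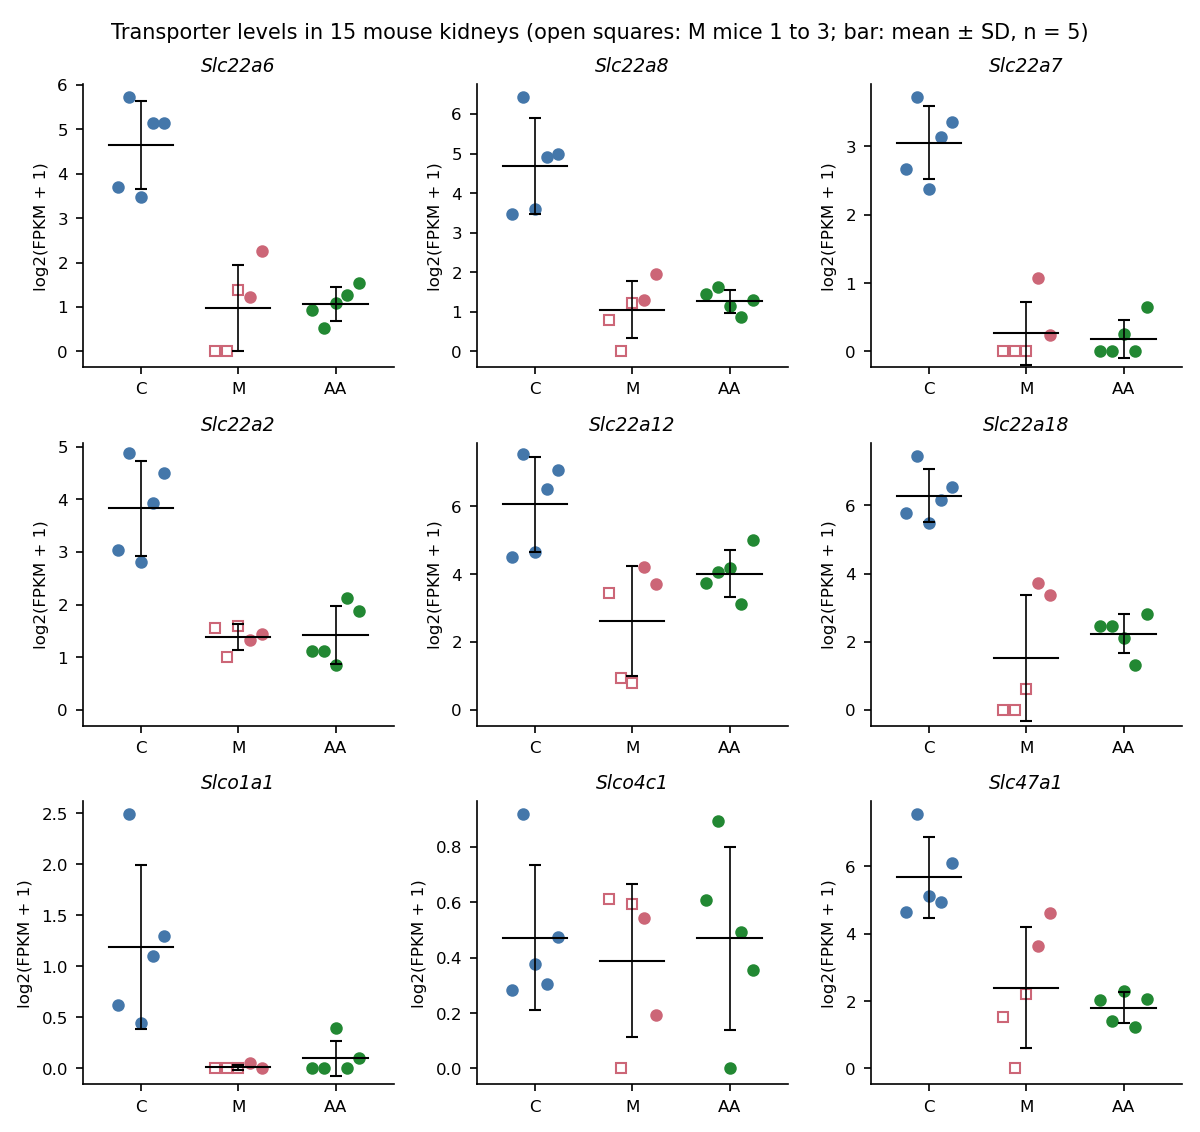
Level of each transporter, as log2(FPKM + 1), in the 5 mice of the C, M and AA groups; each point is a mouse, open squares are M mice 1 to 3, and the bar is the mean ± SD. In 8 of the 9 panels all C points lie above all M points, and in the Slco4c1 panel the groups overlap.

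Of the anion uptake carriers of the blood side, Slc22a6 (OAT1, the classical carrier of para-aminohippurate) was listed at 11.99, 52.2, 10.2, 34.4 and 34.3 FPKM in C mice 1 to 5, at 0, 0, 1.61, 1.32 and 3.77 FPKM in M mice 1 to 5, and at 0.894, 0.441, 1.13, 1.42 and 1.91 FPKM in AA mice 1 to 5. Every M and AA kidney lay below the lowest C kidney, and M mouse 5 was the highest of the adenine-fed mice. The mean was 28.6 ± 17.6 FPKM in C, 1.34 ± 1.55 in M and 1.16 ± 0.554 in AA (SD, n = 5 each). Slc22a6 fell by 3.67 on the log2 scale in M vs. C (SE 0.54, adjusted p = 0.0144); with M mice 4 and 5 alone the difference was −2.91 (adjusted p = 0.131).

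Slc22a8 (OAT3, which shares many substrates with OAT1 and carries sulfate conjugates) stood at 10.04, 85.5, 11.1, 29.0 and 30.9 FPKM in the C mice, at 0.743, 0, 1.33, 1.46 and 2.85 FPKM in the M mice, and at 1.71, 2.07, 1.23, 0.810 and 1.45 FPKM in the AA mice. Its C and M groups did not overlap, and its change was −3.63 (SE 0.54, adjusted p = 0.0155), or −3.06 (adjusted p = 0.144) with M mice 4 and 5 alone. The 2 neighbours had similar levels in the C group: Slc22a8 minus Slc22a6, as a difference of log2(FPKM + 1), ran from −0.24 to 0.70 over the C mice, from −0.31 to 0.80 over the M mice and from −0.42 to 1.09 over the AA mice. These ranges overlap, but this scale understates differences between low values, and both genes were listed at 0 in M mouse 2. A shift between the pair at the low M and AA levels could therefore be missed.

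Slc22a7 (OAT2, a carrier of organic anions and nucleotides) was at 5.35, 12.1, 4.21, 7.82 and 9.25 FPKM in the C mice. It was listed at 0 in M mice 1 to 3 and in AA mice 1, 2 and 4, at 1.10 and 0.183 FPKM in M mice 4 and 5, and at 0.190 and 0.562 FPKM in AA mice 3 and 5. The C group lay wholly above both other groups. Slc22a7 fell by 2.79 on the log2 scale in M vs. C (SE 0.34, adjusted p = 0.00852), the smallest adjusted p among the 9 members in that comparison. With M mice 4 and 5 alone it was −2.39 (adjusted p = 0.0844).

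On the cation side, Slc22a2 (OCT2, the uptake carrier for creatinine and metformin) was measured at 7.22, 28.4, 6.00, 14.2 and 21.6 FPKM in the C mice, 1.94, 1.00, 2.02, 1.497 and 1.73 FPKM in the M mice, and 1.18, 1.16, 0.805, 3.37 and 2.70 FPKM in the AA mice. It was above 0 in all 15 kidneys, and its M values were the closest together of the members called in M vs. C, at 1.64 ± 0.409 FPKM (SD, n = 5). Its change was −2.45 (SE 0.40, adjusted p = 0.0182), and it was −2.45 with M mice 4 and 5 alone (adjusted p = 0.131) and −2.45 with M mice 1 to 3 alone.

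Slc47a1 (MATE1, the proton exchanger that passes cations taken up by OCT2 into the urine) was listed at 23.8, 189, 33.6, 29.8 and 68.4 FPKM in the C mice and at 1.86, 0, 3.66, 11.3 and 23.4 FPKM in the M mice. The AA mice had 3.10, 1.67, 3.90, 1.34 and 3.19 FPKM. M mouse 5, the highest M kidney, lay just under C mouse 1, the lowest C kidney, so the groups did not overlap but nearly touched. In M vs. C the difference was −3.28 (SE 0.79, adjusted p = 0.0637) and was not called. It was −4.43 (adjusted p = 0.00305) with M mice 1 to 3 alone and −1.56 (adjusted p = 0.471) with M mice 4 and 5 alone.

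Slc22a12 (URAT1, the brush border exchanger that takes urate back) had the highest mean of the 9 genes in the C group, 90.9 ± 70.5 FPKM (SD, n = 5), and a spread that left its neighbours in the order, Slc22a18 at 87.3 ± 52.5 and Slc47a1 at 68.9 ± 69.2 FPKM, within it. The C mice were at 21.6, 185, 24.3, 90.7 and 133 FPKM, the M mice at 9.80, 0.936, 0.720, 17.5 and 11.99 FPKM, and the AA mice at 12.3, 15.8, 17.1, 7.67 and 30.9 FPKM. No M kidney reached the lowest C kidney, whereas AA mouse 5 lay above C mice 1 and 3. The difference in M vs. C was −3.44 (SE 0.79, adjusted p = 0.0511), just short of a call. It was −4.33 (adjusted p = 0.00681) with M mice 1 to 3 alone and −2.10 (adjusted p = 0.362) with M mice 4 and 5 alone.

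Slc22a18 (a carrier related to organic cation transporters, whose physiological substrate is less settled) was at 53.9, 175, 43.7, 71.1 and 92.8 FPKM in the C mice. It was listed at 0 in M mice 1 and 2, at 0.520 FPKM in M mouse 3 and at 12.1 and 9.32 FPKM in M mice 4 and 5. The M group therefore split by library, with M mice 4 and 5 above every AA kidney; these were at 4.49, 4.50, 3.29, 1.52 and 6.07 FPKM. Slc22a18 fell by 4.75 on the log2 scale in M vs. C (SE 0.74, adjusted p = 0.0180), the second lowest change among all 21153 genes tested. With M mice 4 and 5 alone the difference was −2.75 (SE 0.50, adjusted p = 0.0913).

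The 2 Slco members were the least abundant in the C group. Slco1a1 (Oatp1a1, an organic anion carrier of the brush border that is higher in male than in female mice) was at 0.537, 4.62, 0.359, 1.15 and 1.45 FPKM in the C mice. It was listed at 0 in 4 of 5 M kidneys and at 0.0388 FPKM in M mouse 4, and among the AA kidneys it was above 0 in mouse 3, at 0.316 FPKM, and mouse 5, at 0.0706 FPKM. The groups did not overlap, and the difference of −1.18 in M vs. C (SE 0.33, adjusted p = 0.0993) was not called, nor was that of −1.16 (adjusted p = 0.402) with M mice 4 and 5 alone. Its M value rests on 6 read steps, a step being the smallest unit in which a gene's FPKM moved.

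Slco4c1 (Oatp4c1, a blood-side carrier of cardiac glycosides and uremic toxins) was at 0.216, 0.892, 0.298, 0.235 and 0.390 FPKM in the C mice, 0.527, 0, 0.510, 0.458 and 0.144 FPKM in the M mice, and 0.524, 0.858, 0, 0.406 and 0.278 FPKM in the AA mice. The 3 groups overlapped throughout. The difference in M vs. C was −0.083 (SE 0.18, adjusted p = 0.830), or −0.10 (adjusted p = 0.913) with M mice 4 and 5 alone. Over all alternatives run, it ranged from −1.91 to 0.28, and none called it. At 410 read steps over the 5 C mice and 152 over the 5 M mice, this gene was measured far less deeply than Slc22a6, which had 21794 and 710.

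In the C group, mouse 2 was the highest for all 9 members and mouse 1 or mouse 3 was the lowest for all 9. Summed over the 9 genes, the C kidneys ran from 134 to 733 FPKM, the M kidneys from 1.94 to 53.4 FPKM and the AA kidneys from 16.5 to 47.1 FPKM. Members listed at 0 numbered 4, 7, 2, 0 and 1 in M mice 1 to 5 and 2, 2, 1, 2 and 0 in AA mice 1 to 5. All 9 were above 0 in every C kidney.

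With M mice 4 and 5 alone, none of the 9 members was called in M vs. C, where 0 genes of the whole table were called (2642 at an unadjusted p under 0.05). The 9 differences from the C group were then between −3.06 for Slc22a8 and −0.10 for Slco4c1. With M mice 1 to 3 alone, 7 of the 9 were called lower, where 12.5% of all genes tested were. Leaving out C mouse 5 left 1 call, Slc22a7, where 0.02% of all genes tested were called lower. Leaving out M mouse 2 left 3, beside 0.128% of all genes, and leaving out M mouse 3 left 2, beside 0.0617%.

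The deposited FPKM did not sum to a common total: summed over all genes, C kidneys held 263859 to 463739, M kidneys 412144 to 1171210 and AA kidneys 460489 to 1481920. Scaling each library to the same total (TPM) moved the median of all genes in M vs. C from −0.12 to −0.58, and 8 of the 9 transporters, all but Slco4c1, were then called lower, as were 7.46% of all genes tested. A limma voom fit on reads recovered from the FPKM steps also called 8 of 9 lower, along with 8.67% of all genes tested. The 5 genes called on the FPKM scale kept a negative difference under every alternative run.

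**Figure D2:**
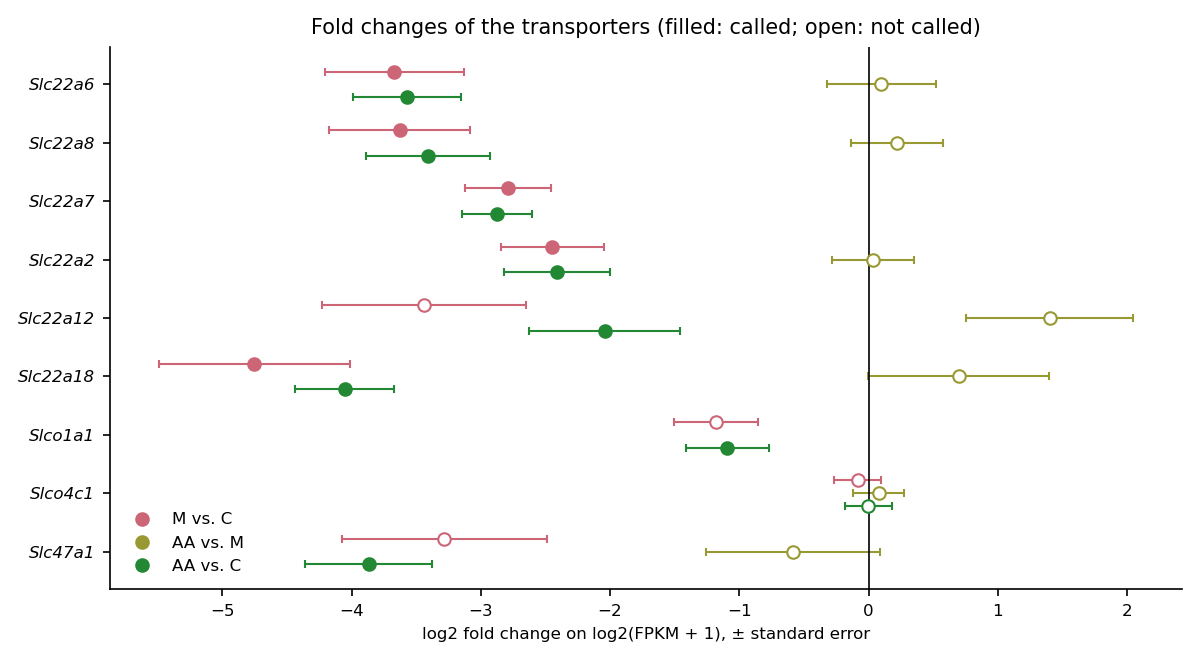
Log2 fold change of each transporter, on the log2(FPKM + 1) scale and ± standard error, in the 3 comparisons between groups; filled points passed the call and open points did not. The AA vs. M points lie around 0, between −0.59 and 1.40, whereas 8 of the 9 genes have filled points in AA vs. C.

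In AA vs. M, which asked what asiatic acid changed in adenine-fed mice, 0 of the 7 members tested were called by limma, 1 had an unadjusted p under 0.05, and the voom fit on recovered reads called 0 as well. Slc22a7 and Slco1a1 were above 0 in fewer than 5 of the 10 libraries and were not tested. Over all 19798 genes tested, 11.7% were called higher and 1.07% lower, shares at which 0 calls among 7 genes do not set the members apart. The differences were 0.10 for Slc22a6, 0.22 for Slc22a8, 0.037 for Slc22a2 and 0.081 for Slco4c1, each smaller than its standard error. The median of the 7 was 0.10, beside 0.17 over all genes tested.

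The member with the largest AA vs. M difference was Slc22a12, at 1.40 (SE 0.65, unadjusted p = 0.048, adjusted p = 0.151). It rested on M mice 1 to 3: relative to these it was 2.29 (adjusted p = 0.0164, called), while relative to M mice 4 and 5 it was 0.062 (adjusted p = 0.944). Slc22a18 differed by 0.70 (SE 0.69) against all M mice, by 2.03 against M mice 1 to 3 (adjusted p = 0.00277, called) and by −1.31 against M mice 4 and 5 (adjusted p = 0.0769). Slc47a1 differed by −0.59 (SE 0.67, adjusted p = 0.593) against all M mice. With M mice 4 and 5 as the only M kidneys the difference was −2.31 (SE 0.40, adjusted p = 0.0114, called), these mice being at 11.3 and 23.4 FPKM and the highest AA kidney at 3.90 FPKM. For Slc22a18 and Slc47a1 the sign of the AA vs. M difference thus depended on which M libraries were used. So did that of Slc22a6, at 0.61 against M mice 1 to 3 and −0.66 against M mice 4 and 5. Slc22a8 was at 0.60 and −0.35 in the same order, and neither gene was called in either setting. Over all genes tested, 17.9% were called higher and 2.38% lower against M mice 1 to 3. Against M mice 4 and 5, 1.87% were called higher and 5.7% lower.

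Compared to the C group, 8 of the 9 transporters were lower in the AA group, all but Slco4c1, with 7 of 9 not overlapping. Over the 21898 genes tested, 9.61% were called lower, 10.2% were called higher and 12.5% were lower without overlap. The median over the 9 members was −2.87, beside 0.091 over all genes tested. This comparison and M vs. C use the same C kidneys, so their values are given side by side and not as independent evidence.

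Slc22a18 had the largest drop in AA vs. C, −4.05 (SE 0.38, adjusted p = 0.000110), where it was −4.75 in M vs. C. Slc47a1 followed at −3.87 (SE 0.49, adjusted p = 0.000330), with −3.28 in M vs. C. The anion carriers Slc22a6, Slc22a8 and Slc22a7 were at −3.57, −3.41 and −2.87, with adjusted p-values of 0.000227, 0.000539 and 0.000110. Slc22a2 was at −2.41 (SE 0.41, adjusted p = 0.00151). For these 4 uptake carriers the differences from C in the M and AA groups were closer to each other than 1 standard error with all 5 M mice. Against M mice 4 and 5 alone the AA kidneys differed by −0.66 (SE 0.39) for Slc22a6 and −0.35 (SE 0.33) for Slc22a8, neither called.

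Slc22a12 and Slco1a1 had the smaller called differences in AA vs. C. For Slc22a12 the difference was −2.04 (SE 0.58, adjusted p = 0.0181) and AA mouse 5 lay within the C range. Slco1a1 was at −1.09 (SE 0.32, adjusted p = 0.0202) and lost its call when C mouse 2, its highest kidney, was left out. Slco4c1 differed by −0.0018 (SE 0.18, adjusted p = 0.994), and by −1.81 to 0.12 over the alternatives, with no call. No M library enters this comparison.

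**Figure D3:**
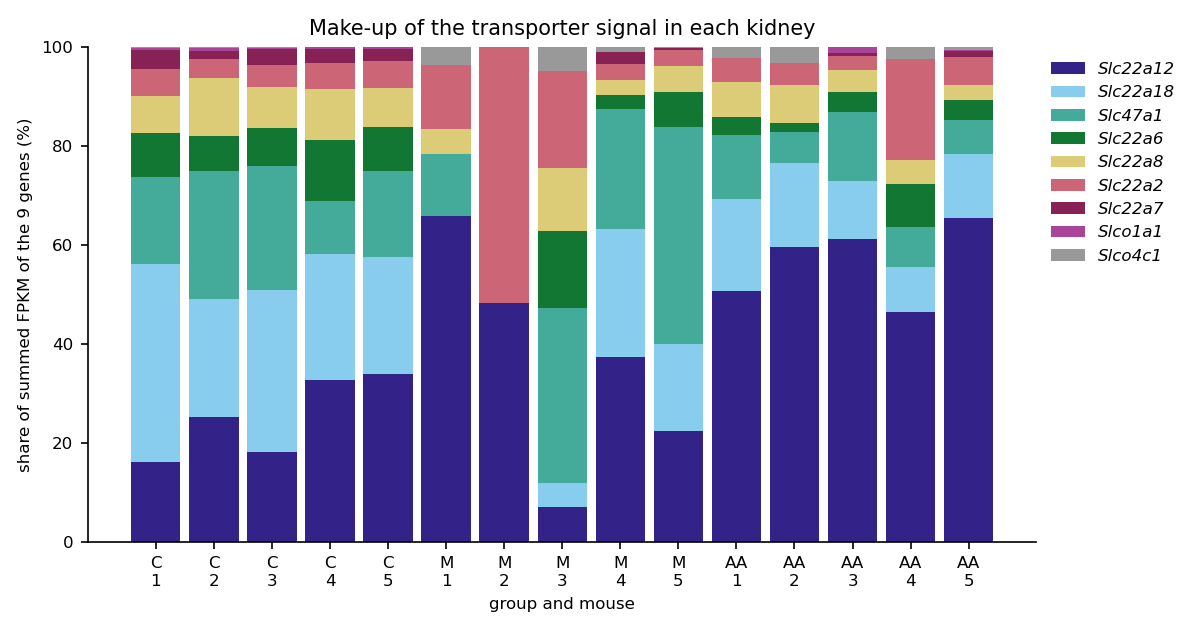
Share of each transporter in the summed FPKM of the 9 genes, in percent, for each of the 15 kidneys; each bar is a mouse. Slc22a12 makes up 16.0 to 33.9% of the bar in C mice, against 46.4 to 65.5% for AA mice, and in M mouse 2 the bar holds Slc22a12 and Slc22a2 alone.

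The make-up of the transporter signal differed as well. Slc22a12 took 16.0 to 33.9% of the summed FPKM of the 9 genes in the C kidneys (median 25.3%), 46.4 to 65.5% in the AA kidneys (median 59.6%) and 6.95 to 65.9% in the M kidneys. The C and AA ranges did not overlap, while the M range covered both. Slc22a18 took 23.7 to 40.0% in C, 9.17 to 18.6% in AA and 0 to 25.9% in M. Slc22a7 made up 1.66 to 3.97% in C, 0 to 2.36% in M and at most 1.19% in AA. In M mice 4 and 5 the share of Slc22a12 was 37.4% and 22.5% and that of Slc22a18 was 25.9% and 17.5%. These shares of FPKM do not depend on how a library was scaled, and no test was run on them. In the M kidneys with few reads, such as M mouse 2 with 1.94 FPKM in all, a share rests on very few reads.

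Cell type markers also differed between the groups, some in the direction of the transporters and some in the other, and their part in the results was not tested. Proximal tubule markers, 15 genes such as Slc34a1, Lrp2 and Cubn, summed to 3395 to 13874 FPKM in C, 164 to 739 in M and 328 to 720 in AA. Against the C group, 7 of them were called lower in M and 9 in AA, and 1 was called higher in AA vs. M. Of all genes tested, 1.11% were called lower in M vs. C, 9.61% in AA vs. C, and 11.7% were called higher in AA vs. M. In the M group Lrp2 was listed at 0 in 1 kidney and Slc5a2 and Slc5a12 in 2 each, and in the AA group Slc5a2 was listed at 0 in 2. The labelled tissue was thus recognisable as kidney in all 15 libraries, with a lower proximal tubule signal in both adenine-fed groups.

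The other marker lists were also followed. Loop and distal tubule markers summed to 63.6 to 208 FPKM in C, 23.4 to 87.2 in M and 38.5 to 63.2 in AA, with 1 of 5 called lower in M vs. C, 2 of 5 in AA vs. C and 0 of 5 called in AA vs. M. Collecting duct markers were at 37.5 to 487, 5.15 to 25.96 and 9.42 to 20.6 FPKM, with 2 of 5 called lower in each adenine-fed group and 0 called in AA vs. M. Podocyte and endothelial markers were at 11.8 to 23.1, 9.47 to 16.8 and 6.93 to 11.0 FPKM, with 0 of 5 called in M vs. C, 0 in AA vs. M and 1 lower in AA vs. C.

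Lists of inflammation, matrix and injury held calls in the other direction for part of their genes. Of all genes tested, 0.269% were called higher in M vs. C, 10.2% in AA vs. C and 11.7% in AA vs. M. In AA vs. M, 1.07% were called lower. Macrophage and leukocyte markers ran from 10.5 to 113 FPKM in C, from 153 to 460 in M and from 112 to 162 in AA, with 4 of 8 called higher in M vs. C, 5 of 8 in AA vs. C and 1 of 8 called lower in AA vs. M. Fibroblast markers were at 54.6 to 116, 93.5 to 368 and 215 to 387 FPKM, with 1 of 5 called higher in M vs. C, 4 of 5 in AA vs. C and 1 of 5 in AA vs. M; 2 of the 5 had negative differences in M vs. C. Injured tubule markers were at 2.56 to 8.43, 9.28 to 23.8 and 17.8 to 33.7 FPKM, with 0 of 5 called in M vs. C, 3 of 5 higher in AA vs. C and 2 of 5 higher in AA vs. M. With M mice 4 and 5 alone, no gene of any of these lists was called in M vs. C. In those mice the proximal tubule markers summed to 570 and 386 FPKM, and 1 of the 15 was called higher and 3 lower in AA relative to them. Over all genes tested, 1.87% were called higher and 5.7% lower in that setting.

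**Figure D4:**
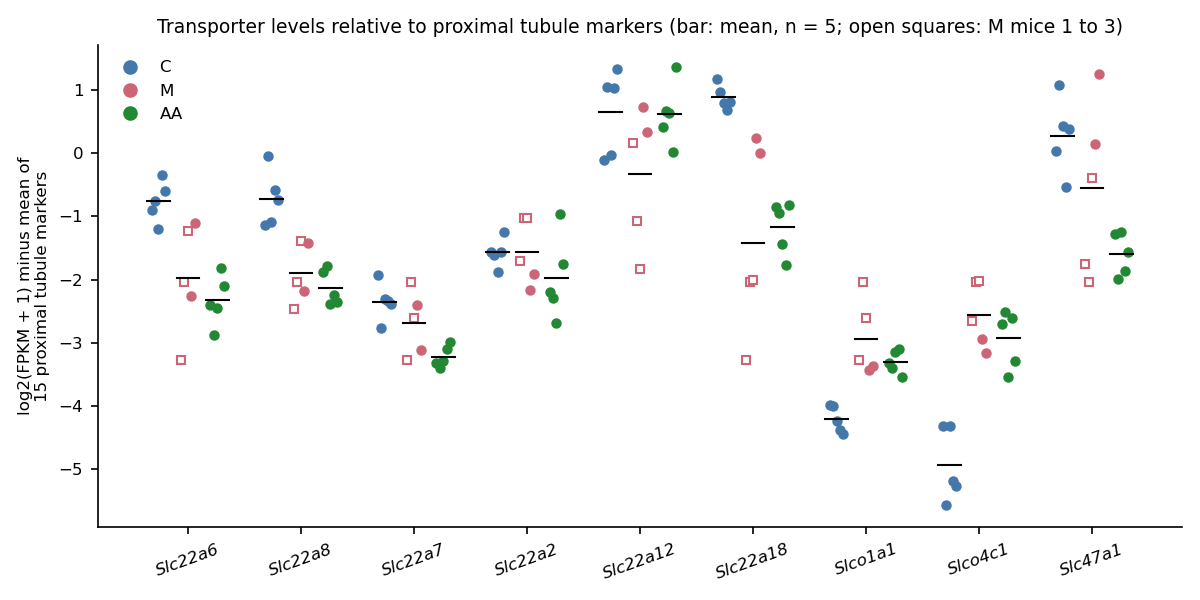
Level of each transporter minus the mean of the 15 proximal tubule markers, both as log2(FPKM + 1); each point is a mouse, the bar is the group mean (n = 5) and open squares are M mice 1 to 3. Slc22a18 drops from 0.89 in C to −1.16 in AA on this scale, whereas Slc22a12 is at 0.66 in C, −0.33 in M and 0.62 in AA.

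Set against the proximal tubule markers, the members did not move alike. The mean log2(FPKM + 1) of the 15 markers was 5.40 ± 0.78 in C, 2.95 ± 0.61 in M and 3.40 ± 0.21 in AA (SD, n = 5 each). It includes markers low in C, such as Slc5a12 at 1.21 and Cubn at 1.83, which can fall little on this scale. A drop of an abundant member against this mean thus also depends on its level in C. Slc22a18 minus this mean was 0.89 ± 0.19 in C, −1.41 ± 1.49 in M and −1.16 ± 0.42 in AA, with no AA kidney in the C range. Slc22a6 was at −0.76 ± 0.32, −1.98 ± 0.88 and −2.33 ± 0.40, and Slc47a1 at 0.28 ± 0.59, −0.56 ± 1.36 and −1.59 ± 0.34. Slc22a12 was at 0.66 ± 0.67 in C, −0.33 ± 1.08 in M and 0.62 ± 0.49 in AA, and Slc22a2 at −1.57 ± 0.23 in C, −1.57 ± 0.52 in M and −1.98 ± 0.66 in AA. For Slc22a12 and Slc22a2 the AA and C ranges on this scale overlapped, whereas for Slc22a18, Slc22a6, Slc22a8, Slc22a7 and Slc47a1 they did not. In M mice 4 and 5, Slc22a18 was at 0.24 and 0.0068, Slc22a6 at −2.26 and −1.11, Slc22a12 at 0.73 and 0.34, and Slc47a1 at 0.15 and 1.25. Slco1a1 and Slco4c1 stood higher against the markers in M and AA than in C, but their own levels were near 0 FPKM, so the scale there follows the markers. The same holds for Slc22a7 in AA mice 1, 2 and 4, where it was listed at 0. It also holds for the 0 values of Slc22a6 and Slc22a18 in M mice 1 and 2 and of Slc47a1 in M mouse 2. These are descriptions, with no test.

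The genes whose level followed the members most closely were Slc13a3 (r = 0.987), Slc34a1 (0.987), Slc26a4 (0.981), Slc6a13 (0.980) and Slc12a3 (0.980). The measure was Pearson's r with the mean log2(FPKM + 1) of the 9 members over the 15 libraries, among 11517 genes with a mean of at least 1 FPKM, and the points share the group differences and the library scaling. Slc34a1 is the brush border phosphate carrier, with a median of 140 FPKM in C, 1.97 in M and 3.35 in AA. Slc26a4 and Slc12a3 are known from the intercalated cells and the distal convoluted tubule, not the proximal tubule; their medians were 7.497 and 33.8 FPKM in C, 0 and 0 in M, and 0.639 and 1.11 in AA.

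A wider list of 51 genes held the other carriers of these families, brush border and efflux partners, dicarboxylate carriers and transcription regulators of the tubule. Of the 47 tested in M vs. C, 7 were called lower and 0 higher, and 42 had a negative difference, where 1.11% of all genes were called lower and 67.9% were negative. The 7 became 22 on the TPM scale, by voom and with M mice 1 to 3 alone, 15 with all 15 libraries in one fit, 1 with genes above 0 in any library and 0 with M mice 4 and 5 alone, and leaving out 1 library gave 0 (C mouse 5) to 15 (M mouse 5), with 1 without M mouse 2 or 3 and 4 without C mouse 2, C mouse 4 or M mouse 1. The share of all genes called lower was 7.46% on the TPM scale, 8.67% by voom, 12.5% with M mice 1 to 3 alone and 3.06% in one fit. It was 0.0694% with genes above 0 in any library, 0 with M mice 4 and 5 alone, 0.02% without C mouse 5 and 3.96% without M mouse 5. By group, the 7 were 3 of 18 other Slc22 carriers, 0 of 9 other Slco and Slc47 carriers, 3 of 15 brush border and efflux partners and 1 of 2 dicarboxylate carriers. Set against C, 16 of 47 were called lower in AA and 0 higher, where 9.61% of all genes were called lower and 10.2% higher.

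Among those called lower in M vs. C were Slc13a3 (NaDC3), the blood-side dicarboxylate carrier that feeds the exchange of OAT1 and OAT3, at −3.29 (SE 0.53, adjusted p = 0.0182). It was at 6.81, 55.2, 6.78, 16.0 and 31.1 FPKM in the C mice, 0.760, 0, 0.791, 1.29 and 1.86 FPKM in the M mice, and 0.901, 0.532, 1.02, 0.783 and 1.49 FPKM in the AA mice, so that the C group lay above both others. Slc17a3 and Slc17a1, brush border exit routes for urate and other anions, were at −3.14 (adjusted p = 0.0182) and −2.18 (adjusted p = 0.0341). Slc22a30 and Slc22a28, rodent members of the anion carrier branch, were at −3.74 and −2.95 (adjusted p = 0.0131 and 0.0182). Slc22a13 (OAT10) and Pdzk1, the scaffold protein that binds URAT1 at the brush border, were at −2.08 and −2.11 (adjusted p = 0.0462 and 0.0363). None of these 7 was called with M mice 4 and 5 alone.

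In AA vs. M, 6 of 43 of the wider list were called higher and 0 lower, where 11.7% of all genes were called higher. Beside that share, 6 calls among 43 genes do not set the list apart. Slc22a13, a brush border exchanger of urate and nicotinate, was at 8.76, 8.38, 4.04, 8.37 and 9.57 FPKM in the C mice, 0.775, 0, 0, 3.63 and 3.11 in the M mice, and 10.9, 10.5, 9.69, 8.21 and 6.36 in the AA mice. Every AA kidney lay above every M kidney, as for 11.9% of all genes tested, and the AA range overlapped the C range. Slc22a13 was higher in AA by 2.30 (SE 0.45, adjusted p = 0.00530), and by 1.19 against M mice 4 and 5 alone (adjusted p = 0.0402), which made it the only one of the 6 called in that setting. There, 1.87% of all genes tested were called higher.

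**Figure D5:**
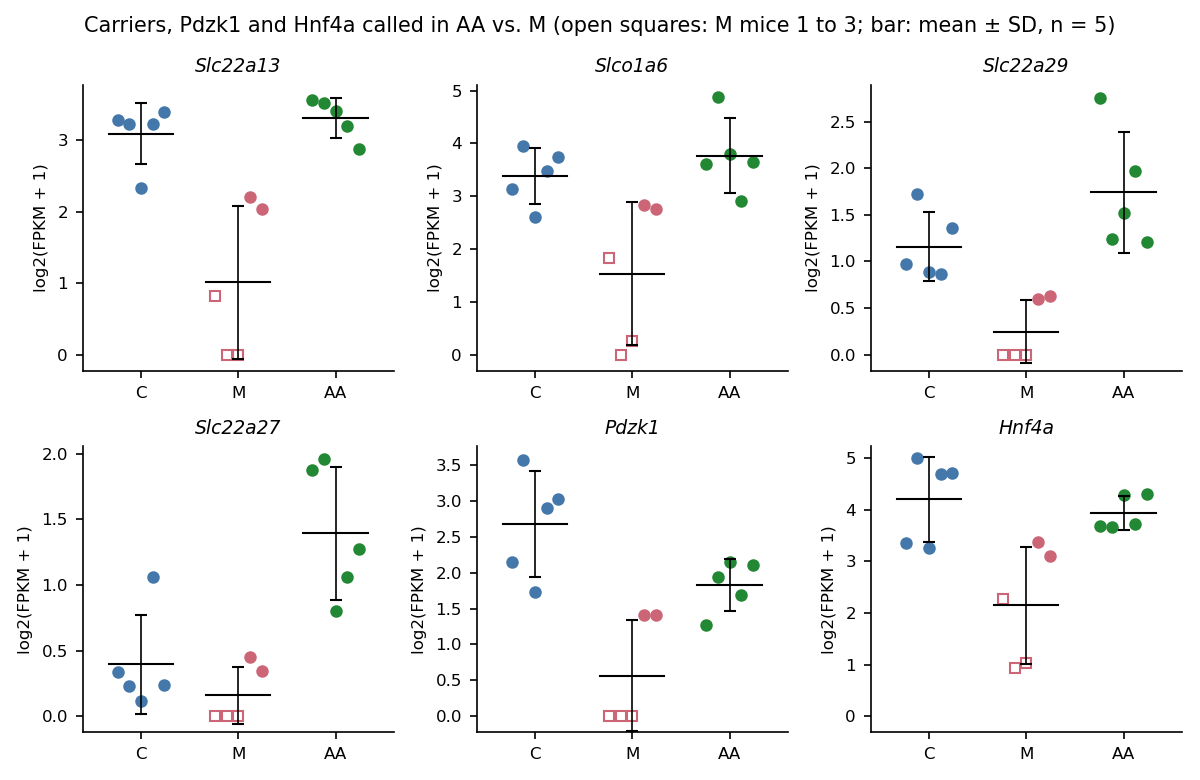
Level, as log2(FPKM + 1), of the 6 genes of the wider list called higher in AA vs. M; each point is a mouse, open squares are M mice 1 to 3 and the bar is the mean ± SD (n = 5). For 5 of the 6 every AA point lies above every M point, and M mice 4 and 5 lie above M mice 1 to 3 in all panels.

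The other 5 were Slco1a6 at 2.23 (SE 0.57, adjusted p = 0.0170), Hnf4a at 1.79 (SE 0.47, adjusted p = 0.0195), Slc22a29 at 1.49 (SE 0.34, adjusted p = 0.00969), Pdzk1 at 1.27 (SE 0.38, adjusted p = 0.0328) and Slc22a27 at 1.23 (SE 0.28, adjusted p = 0.00948). Hnf4a, the nuclear receptor that drives proximal tubule genes, was at 9.18, 31.005, 8.51, 24.6 and 24.999 FPKM in the C mice, 3.80, 0.912, 1.05, 9.37 and 7.60 in the M mice, and 11.9, 11.7, 18.5, 12.2 and 18.8 in the AA mice. Its AA kidneys lay within the C range and above all M kidneys. Slc22a27 had a higher mean in AA, 1.76 ± 0.960 FPKM, than in C, 0.357 ± 0.412 FPKM (SD, n = 5 each), with a difference of 1.00 (SE 0.27, adjusted p = 0.0142) that fell just short of the required size. On the TPM scale 0 of the 43 genes were called in AA vs. M, where 2.1% of all genes were called higher and 0.0354% lower. At those shares, 0 calls do not set the list apart. All 6 differences stayed positive on that scale. Slc22a27, Slc22a29 and Pdzk1 were listed at 0 in M mice 1 to 3, and the 5 genes beside Slc22a13 lost their call against M mice 4 and 5 alone, with differences from 0.42 for Pdzk1 to 1.13 for Slc22a29.

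Slc22a5 and Slco4a1, also high in C among the wider list, were called in neither M vs. C nor AA vs. M, and both were called lower in AA vs. C, at −2.18 (adjusted p = 0.00927) and −2.68 (adjusted p = 0.00479). Slc22a5 (OCTN2), the carnitine carrier, averaged 13.6 ± 11.2, 2.79 ± 1.99 and 2.08 ± 1.69 FPKM, with −1.88 (adjusted p = 0.126) in M vs. C. Slco4a1, a carrier of thyroid hormones, averaged 14.3 ± 15.1, 1.97 ± 1.95 and 0.596 ± 0.426 FPKM, with −1.99 (adjusted p = 0.164) in M vs. C.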

How the data were processed

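Kidney RNA from 15 mice was read as 150 bp pairs after poly-A selection. Per the submitters' processing notes, fastp, HISAT2 2.0.5, the mm10 build and featureCounts 1.5.0-p3 were used; the annotation release was not given in the sources used here. The deposited FPKM were made by the authors from read counts per gene. Gene symbols and coordinates came from GENCODE M21 (54495 of 54532 IDs matched).

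From these values, log2(FPKM + 1) was tested by limma 3.58.1 (R 4.3.3, empirical Bayes with trend) in each pair of groups, over genes above 0 in at least 5 of the 10 libraries, with Benjamini-Hochberg adjustment over all tested genes; the script was tested on simulated data. Replicates are mice numbered in the labels. The 9 members, the gene lists and the naming rule (every member; each gene of the wider list called in M vs. C or AA vs. M; the 8 of that list highest in C; the 5 genes most correlated with the members) were chosen with earlier results of these data known; 1 gene that the rule names is not reported here.

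FPKM moved in steps, of which 97.6 to 98.9% of low values (under 20 steps) were whole multiples within 0.02; a step may be 1 read or 1 mate of a pair. Outside mitochondrial genes, libraries held 6951358 to 13576596 steps in C, 2077628 to 7142897 in M and 2225763 to 4271191 in AA, and low depth makes low values less precise. Same-numbered mice were checked for pairing by the correlation of their deviations from the group means, which ran from −0.14 to 0.22, so they were not taken as pairs. The alternatives were another pseudocount (0.1), filter, scaling (TPM, outside mitochondrial genes, quantiles, medians), library weights, voom on recovered reads, a replicate block, all 15 libraries in one fit, parts of the M group and each library left out.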

Additional observations from a re-analysis of the deposited data

Results flagged for a closer look

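Of 27 gene and group combinations tested (9 genes in 3 groups of 5 mice), 7 held a mouse far from the others by Dixon's test on FPKM (ratio above 0.71). Chance flags about 1 in 20 groups of normally distributed values. Groups with several values of 0 cannot be set against that rate, and the genes share libraries and are not independent. C mouse 2 accounted for 4 of the 7: Slc22a8 at 85.5 FPKM, where the next C mouse was at 30.9, Slc47a1 at 189 FPKM (next 68.4), Slco1a1 at 4.62 FPKM (next 1.45) and Slco4c1 at 0.892 FPKM (next 0.390). Without C mouse 2 the count of transporters called in M vs. C was 5, as with it. M mouse 4 stood out for Slc22a7, at 1.10 FPKM with the next M mouse at 0.183, and for Slco1a1, at 0.0388 FPKM with the other M mice at 0. In that Slco1a1 group the ratio is 1 for any value of M mouse 4 above 0. AA mouse 3 stood out for Slco1a1, at 0.316 FPKM with the next at 0.0706.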

How the results depend on the processing

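The count of transporters called in M vs. C was 5, where 1.11% of all genes tested were called lower. It was 2 with genes above 0 in any library (0.0694% of all genes), 8 on the TPM scale (7.46%) and 8 with all 15 libraries in one fit (3.06%). It was 8 by limma voom on recovered reads (8.67%) and 0 with M mice 4 and 5 only (0%). Leaving out 1 library gave 1 to 7: 1 without C mouse 5 (0.02%), 3 without M mouse 2 (0.128%) and 2 without M mouse 3 (0.0617%). In AA vs. M the count was 0. It was 1 with library quality weights (Slc47a1, −1.51, adjusted p = 0.0488), where 8.35% of all genes tested were called higher and 4.04% lower. With M mice 4 and 5 only it was 1 (Slc47a1), where 1.87% were called higher and 5.7% lower. With M mice 1 to 3 only it was 2 (Slc22a12 and Slc22a18), where 17.9% were called higher and 2.38% lower. Leaving out 1 library gave 0 throughout. In AA vs. C it was 8 under every alternative but 7 without C mouse 2. A replicate block, which treats same-numbered mice as a pairing, gave 5, 0 and 8, the same counts as without it, while calls over all genes in M vs. C went from 57 higher and 234 lower to 20 and 132. Signs changed for differences close to 0 and, in AA vs. M, also for the larger ones of Slc22a18 (0.70) and Slc47a1 (−0.59). Slco4c1 in M vs. C became 0.15 by quantile normalization, 0.28 with library medians centred and 0.0036 with quality weights (left-out libraries −0.14 to 0.030), and in AA vs. C left-out libraries gave −0.11 to 0.12. In AA vs. M, rescaling outside the mitochondrial genes gave −0.0058 for Slc22a6 and −0.070 for Slc22a2. Quantile normalization gave −0.22 for Slc22a6, −0.15 for Slc22a8, −0.29 for Slc22a2 and −0.27 for Slco4c1. Centring gave −0.41, −0.30, −0.48 and −0.43 in the same order. Quality weights gave −0.056 for Slc22a6, −0.10 for Slc22a8, −0.76 for Slc22a18 and −0.057 for Slco4c1, and voom −0.19 for Slc22a2. M mice 4 and 5 only gave −0.66 for Slc22a6, −0.35 for Slc22a8 and −1.31 for Slc22a18, and M mice 1 to 3 only gave 0.56 for Slc47a1. Left-out libraries gave −0.14 to 0.42 for Slc22a6, −0.045 to 0.44 for Slc22a8, −0.14 to 0.18 for Slc22a2 and −0.025 to 0.20 for Slco4c1. The cause of these changes was not tested. With M mice 4 and 5 only, 2 libraries carry the M group, and on the wider list 1 gene was called higher in AA (Slc22a13) and the lower calls included Slc22a17, Abcc10, Slco4a1 and Slc13a2, named after their values were seen. Low depth limits what can be said of members listed at 0. Outside mitochondrial genes, M mice 1 to 3 held 2077628 to 2770068 steps and AA mouse 2 held 2225763. AA mouse 2 still had 18972 genes above 0, and the cause of the lower gene counts in M mice 1 to 3 was not tested.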

Other observations

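The C kidneys were themselves spread along the members' level. The mean log2(FPKM + 1) of the 15 proximal tubule markers was 4.60 and 4.68 in C mice 1 and 3, which were the 2 lowest C kidneys for 7 of the 9 transporters (all but Slc47a1 and Slco4c1), and 6.48, 5.48 and 5.74 in C mice 2, 4 and 5. Slco4a1 had the opposite order: it was at 24.2 and 36.1 FPKM in C mice 1 and 3 and at 3.84, 3.40 and 3.79 FPKM in C mice 2, 4 and 5. Collecting duct markers were high in the same kidneys: Aqp2 was at 255 and 437 FPKM in C mice 1 and 3 and at 20.6 to 29.6 in the others, Fxyd4 at 64.6 and 37.2 against 5.30 to 12.1, and Aqp3 at 5.91 and 8.57 against 1.21 to 1.44. Atp6v1g3 and Slc4a1, the other 2 of the 5 markers, did not have this order. No label separates these kidneys, and the cause of the split was not tested.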
